A study of Mus musculus with 12 samples.

Results

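The Tmem132 genes (Tmem132a, Tmem132b, Tmem132c, Tmem132d and Tmem132e) encode the members of a small family of membrane proteins. They were found by their gene symbol in the authors' deposited transcript tables. Of the 5 genes, 4 were listed, with 8 of the 44294 transcripts and 4 of the 14610 genes listed in any table. Tmem132d was listed in no table and was not analysed here. The family was chosen by gene symbol with its estimated counts in these 12 libraries and 4 groups already known, so the levels and fold changes of its genes are given as a description with no test.

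The 12 RNA libraries came from cultured mouse neural stem cells with PDGFB, a growth factor used to model diffuse intrinsic pontine glioma. The cells carried K27M mutant histone H3.3 and received 3 µM EPZ6438 (K27M EPZ6438) or DMSO (K27M DMSO), or they carried wild-type H3.3 and received EPZ6438 (WT EPZ6438) or DMSO (WT DMSO). Each of the 4 groups had 3 replicates and each treatment lasted 12 days. All groups shared PDGFB, a coating of poly-D-lysine and laminin, and medium with epidermal and basic fibroblast growth factors. EPZ6438 blocks EZH2, the enzyme of the polycomb complex PRC2 that methylates lysine 27 of histone H3, a mark of silenced genes, and the K27M protein itself interferes with PRC2. The labels do not say whether replicates were separate cultures or clones, nor which promoter drove the histone, so spreads and p-values measure only the variation between these samples, which may be technical.

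Tmem132 proteins cross the membrane once. Their large extracellular part holds immunoglobulin-like domains, and they have been described as neural adhesion molecules that may link the cell surface to the actin skeleton. In Caenorhabditis elegans the single family protein has been tied to neurabin and to the WAVE complex, which drives actin branching. In mice, loss of Tmem132a disturbs neural tube closure, and its protein has been reported to bind Wntless (Wls), the carrier that brings Wnt ligands to the cell surface. Rat Tmem132a was first described as a partner of the chaperone Hspa5, and human TMEM132E has been tied to inherited hearing loss. All these roles are background and were not measured here.

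Totals of estimated counts ranged from 7.91 M to 24.11 M per library. The K27M DMSO libraries were the deepest, from 22.07 M upward, and the highest total in the other 3 groups was 15.77 M. The part of depth in the results was not tested. WT DMSO replicate 1 was unlike the other libraries of its group. The chi-square per gene was 22.8 and 19 where it was set against each of the other two, which gave 3.01 when set against each other. Across genes, its departure from the group mean was tied to GC content (Spearman −0.66). Such ties ran from −0.48 to 0.53 in the other 11 libraries, so a tie to GC was not particular to it. Fold changes of the Tmem132 genes and list counts that use WT DMSO are also given without it. All 8 neural stem cell markers (such as Nes, Sox2 and Vim) were measured in every group, as the label has it. Their summed levels, carried mostly by Vim, Fabp7 and Nes, were 6670 to 6750 CPM in K27M EPZ6438, 6580 to 6720 CPM in K27M DMSO, 6610 to 6720 CPM in WT EPZ6438 and 7300 to 7650 CPM in WT DMSO. Levels are in CPM, library-size scaled counts (TMM) over all 12 libraries. Means given with a fold change are instead scaled within the pair of groups compared, so they can differ from these levels. Levels of different genes are compared per transcript length, in TPM. In such bulk samples, a lower share of cells with a transcript and less transcript per cell cannot be told apart.

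On the GRCm38 build, Tmem132a (ENSMUSG00000024736) lies at chr19:10857822-10869940 on the minus strand and Tmem132e (ENSMUSG00000020701) at chr11:82388900-82446332 on the plus strand. The other 3 genes lie on chromosome 5. Tmem132b (ENSMUSG00000070498) spans chr5:125531774-125792583 and Tmem132c (ENSMUSG00000034324) chr5:127241808-127565793, both on the plus strand, 1.45 Mb apart. Tmem132d (ENSMUSG00000034310, minus strand) follows after a further 216 kb. The promoters of Tmem132b, Tmem132c and Tmem132e are printed because these 3 genes shared the higher levels under EPZ6438 described next. Each sequence runs from 250 bases before to 50 bases after the start of the gene on the plus strand (RefSeq, GRCm38.p6), and capitals mark every CG dinucleotide, the site of DNA methylation. For Tmem132b the RefSeq start lies past the start of the span given above (GENCODE), so its printed sequence lies wholly inside that span.
Tmem132b, chr5:125532168-125532467: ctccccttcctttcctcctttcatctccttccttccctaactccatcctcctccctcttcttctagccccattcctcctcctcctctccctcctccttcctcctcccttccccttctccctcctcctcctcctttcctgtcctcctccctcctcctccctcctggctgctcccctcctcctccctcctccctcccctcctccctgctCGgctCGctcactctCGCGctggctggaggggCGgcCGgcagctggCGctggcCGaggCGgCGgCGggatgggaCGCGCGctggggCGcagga
Tmem132c, chr5:127241576-127241875: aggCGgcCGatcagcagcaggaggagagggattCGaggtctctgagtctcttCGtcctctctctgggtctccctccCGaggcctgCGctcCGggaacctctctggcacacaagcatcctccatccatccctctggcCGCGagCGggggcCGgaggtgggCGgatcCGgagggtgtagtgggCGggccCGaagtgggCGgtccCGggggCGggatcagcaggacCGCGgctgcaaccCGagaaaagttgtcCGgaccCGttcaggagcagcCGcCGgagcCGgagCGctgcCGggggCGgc
Tmem132e, chr11:82388650-82388949: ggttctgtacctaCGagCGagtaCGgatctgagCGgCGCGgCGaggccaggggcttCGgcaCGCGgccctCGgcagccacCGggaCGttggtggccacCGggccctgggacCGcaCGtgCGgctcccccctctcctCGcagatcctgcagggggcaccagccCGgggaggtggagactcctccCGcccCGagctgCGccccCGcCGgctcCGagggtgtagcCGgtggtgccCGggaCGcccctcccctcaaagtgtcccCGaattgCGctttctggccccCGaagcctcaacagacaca
The letters CG read the same on both strands and do not overlap one another. Tmem132b held 15 CG, Tmem132c 29 and Tmem132e 31. Over 32851 promoters of the same length the median was 7, and 94.6% held at least 1. As many CG as in Tmem132c were found in 12.9% of promoters, as many as in Tmem132e in 10.6%, and as many as in Tmem132b in 34.6%. GC content was 67.7% in Tmem132b, 70.3% in Tmem132c and 72.3% in Tmem132e, against a median of 52.7%. No methylation was measured here, and the other two promoters had no entry in the sequence table used.

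Tmem132c was near absent in DMSO and well measured under EPZ6438 in both genotypes. In K27M EPZ6438 the 3 libraries had 13.1, 16.1 and 13.1 CPM, against 0.0926, 0.044 and 0.126 CPM in K27M DMSO. In WT EPZ6438 they had 29.9, 30.2 and 31.3 CPM, against 0, 0.0976 and 0.0667 CPM in WT DMSO. These levels are of Tmem132c-201, which has a value in all 12 libraries but was not listed in the table of K27M DMSO against WT DMSO. The groups with the inhibitor lay far above both DMSO groups, and all 3 wild-type libraries lay above all 3 K27M libraries under the inhibitor. The DMSO levels rested on 6 counts in all in K27M cells and 2 in wild-type cells, and the library at 0 allows a level of up to 0.227 CPM (3 counts). At these counts no order between the DMSO groups can be read.

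Tmem132e was likewise higher under EPZ6438 in both genotypes, but it was also measured in DMSO. It measured 28.3, 24.7 and 28.2 CPM in K27M EPZ6438, against 3.94, 4.4 and 4.2 CPM in K27M DMSO. It measured 24.2, 26.9 and 23.3 CPM in WT EPZ6438, against 3.94, 2.93 and 3.2 CPM in WT DMSO. The inhibitor groups were again fully above the DMSO groups, while the genotypes overlapped under the inhibitor and met at the edge in DMSO.

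Tmem132b was the least abundant listed member under the inhibitor. Its levels were 2.35, 2.05 and 1.54 CPM in K27M EPZ6438, against 0.278, 0.484 and 0.21 CPM in K27M DMSO. They were 3.78, 3.3 and 3.51 CPM in WT EPZ6438, against 0.303, 0.195 and 0.4 CPM in WT DMSO. As with Tmem132c, both inhibitor groups lay above both DMSO groups and wild-type cells lay above K27M cells under the inhibitor. The DMSO groups overlapped and rested on 21.1 estimated counts in K27M cells and 12.3 in wild-type cells.

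Tmem132a, the member tied to neural tube closure in mice, was abundant everywhere and followed another pattern. It had 164, 178 and 173 CPM in K27M EPZ6438, against 121, 117 and 131 CPM in K27M DMSO. It had 154, 185 and 171 CPM in WT EPZ6438, against 148, 186 and 188 CPM in WT DMSO. K27M DMSO was the lowest group and did not overlap the others, which overlapped one another.

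**Figure D1:**
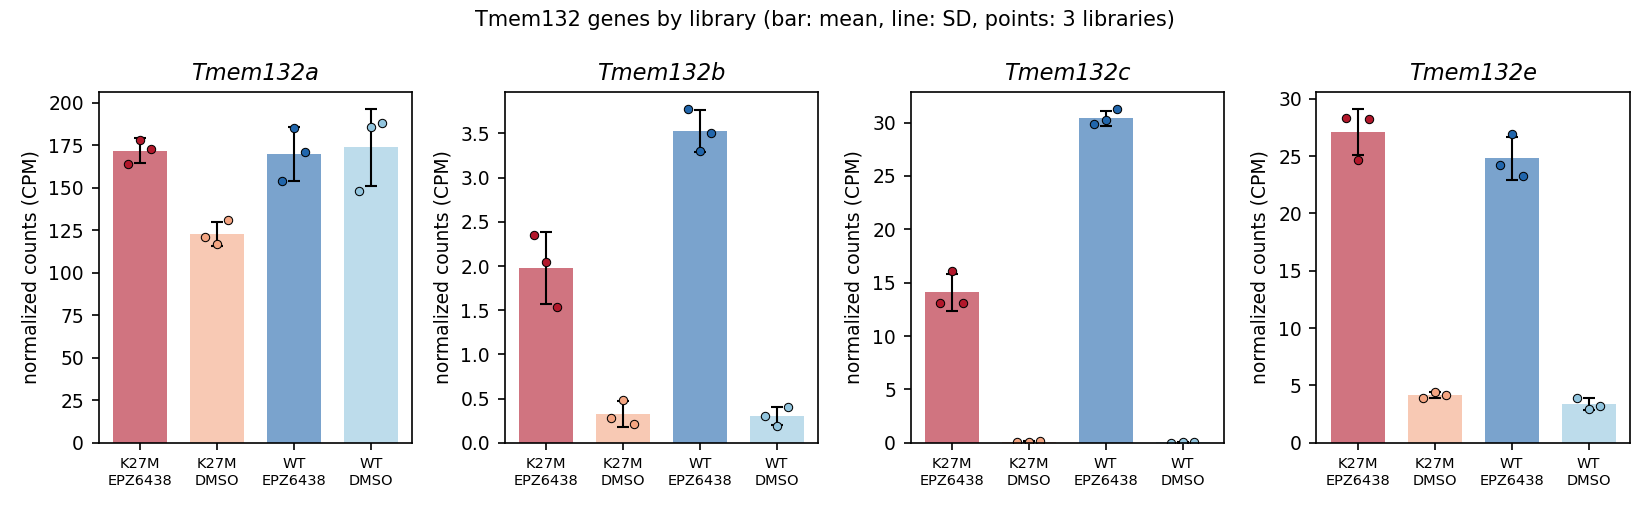
Normalized counts (CPM) of the 4 listed Tmem132 genes in K27M and wild-type (WT) cells with EPZ6438 or DMSO; bars are means, lines SD and points the 3 libraries, and each panel has its own axis from 0. Tmem132b, Tmem132c and Tmem132e were higher in both EPZ6438 groups than in both DMSO groups, while Tmem132a was lowest in K27M DMSO.

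Per transcript length, Tmem132a made up most of the family signal. Its level averaged 114 ± 5.58 TPM in K27M EPZ6438, 80.3 ± 4.46 TPM in K27M DMSO, 113 ± 10.6 TPM in WT EPZ6438 and 104 ± 9.97 TPM in WT DMSO (SD, n = 3 each). Between 14.9 and 22.4% of listed genes had a higher level than Tmem132a in these groups. Tmem132e averaged 15.9 ± 1.01, 2.43 ± 0.133, 14.7 ± 1.02 and 1.77 ± 0.295 TPM in the same order of groups, and Tmem132c 6.79 ± 0.872, 0.0413 ± 0.0194, 14.6 ± 0.463 and 0.0232 ± 0.0211 TPM. In WT EPZ6438 Tmem132c thus reached the level of Tmem132e, with ranges of 14.3 to 15.1 TPM and 13.9 to 15.8 TPM. In K27M EPZ6438 it did not, with ranges of 6.25 to 7.8 TPM and 14.7 to 16.6 TPM. Tmem132b stayed at or below 1.16 TPM in every library. Even under the inhibitor these were modest levels: 64.9% of listed genes were higher than Tmem132c in WT EPZ6438, 63.6% were higher than Tmem132e in K27M EPZ6438, and 92% were higher than Tmem132b in WT EPZ6438.

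Summed over the 4 genes, the family level was 138 ± 5.4 TPM in K27M EPZ6438 and 82.9 ± 4.4 TPM in K27M DMSO, and 144 ± 11.3 TPM in WT EPZ6438 and 106 ± 9.71 TPM in WT DMSO. Tmem132a accounted for 83.1% of it in K27M EPZ6438 against 96.9% in K27M DMSO, and for 78.9% in WT EPZ6438 against 98.2% in WT DMSO. Without Tmem132a, the other 3 genes summed to 23.3 ± 0.181 TPM in K27M EPZ6438, against 2.56 ± 0.153 TPM in K27M DMSO. In wild-type cells the same sum was 30.4 ± 0.77 TPM with EPZ6438 and 1.88 ± 0.281 TPM with DMSO. The ranges of this sum did not overlap between inhibitor and DMSO in either genotype.

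**Figure D2:**
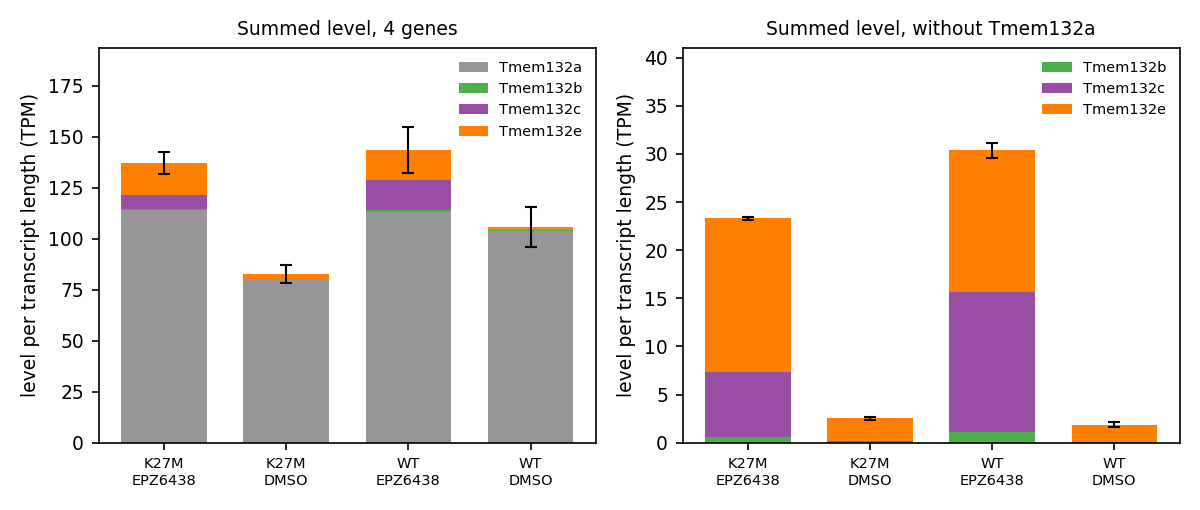
Summed level per transcript length (TPM) of the 4 listed Tmem132 genes (left) and of 3 genes without Tmem132a (right) in each group; coloured segments are group means per gene and lines are the SD of the sum over 3 libraries. Tmem132a fills 78.9 to 98.2% of the left bars, and the right bars are high only in the EPZ6438 groups.

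The response to EPZ6438 in K27M cells was fitted on the 6 K27M libraries. All 4 listed members were higher with the inhibitor than with DMSO and none of the 4 overlapped between groups. Of the 13503 genes tested, 63.1% did not overlap, 32.6% being higher and 30.4% lower, and since these values helped choose the family nothing is read from that difference. Tmem132e averaged 27.1 ± 1.89 CPM with EPZ6438 and 4.19 ± 0.242 CPM with DMSO, a log2 fold change of 2.69 (SE 0.089) or 6.45-fold. Tmem132b averaged 1.98 ± 0.4 CPM and 0.325 ± 0.143 CPM, a log2 fold change of 2.60 (SE 0.355). Tmem132c showed by far the largest ratio of the 4 genes. For Tmem132c the counts were 539 with EPZ6438 and 6 with DMSO, a ratio of 160 after scaling (95% exact binomial interval 73 to 438, for counting error only). Tmem132a averaged 172 ± 8.93 CPM and 123 ± 7.52 CPM, a log2 fold change of 0.48 (SE 0.053) or 1.39-fold. The median log2 fold change was 2.64 over the 4 members and 0.01 over all genes tested. Tmem132b and Tmem132c passed the filter on low counts here only through the libraries with EPZ6438, so nothing is read from these medians.

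In wild-type cells, the same 3 genes were higher with EPZ6438 than with DMSO with no overlap, and Tmem132a was not. Of the 12870 genes tested, 55.4% did not overlap, 27.9% being higher and 27.5% lower. Tmem132e averaged 25 ± 2.28 CPM with EPZ6438 and 3.31 ± 0.639 CPM with DMSO, a log2 fold change of 2.91 (SE 0.158) or 7.51-fold. Tmem132b averaged 3.55 ± 0.184 CPM and 0.295 ± 0.101 CPM, a log2 fold change of 3.49 (SE 0.296). The ratio of Tmem132c was again the largest of the family and the least precise. Tmem132c had 1045 counts over its 3 transcripts with EPZ6438 and 2 with DMSO, a ratio of 672 after scaling (95% exact binomial interval 186 to 5555). Tmem132a averaged 171 ± 18.9 CPM and 170 ± 16.9 CPM, a log2 fold change of 0.01 (SE 0.105), and its groups overlapped, though not with the GC trend removed. Without WT DMSO replicate 1 the log2 fold changes were 3.02 for Tmem132e, 3.45 for Tmem132b and −0.13 for Tmem132a. The median was 3.20 over the 4 members and 0.04 over all genes. Here too Tmem132b and Tmem132c passed the filter only through the EPZ6438 libraries, and nothing is read from these medians.

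Between genotypes in DMSO, K27M cells differed from wild-type cells in Tmem132a, of the members that could be fitted, before removal of the GC trend. Tmem132a averaged 122 ± 6.9 CPM in K27M DMSO and 167 ± 16.7 CPM in WT DMSO, with no overlap, a log2 fold change of −0.46 (SE 0.084) or 1.37-fold lower. Tmem132e averaged 4.15 ± 0.234 CPM and 3.25 ± 0.624 CPM, with overlap, a log2 fold change of 0.35 (SE 0.164). Tmem132b was listed but fell under the filter on low counts, and Tmem132c was not listed in that table. One of 2 fitted members was thus lower with no overlap, beside 70.2% of the 13129 genes tested that did not overlap, 34.8% being higher and 35.4% lower. Without WT DMSO replicate 1 the log2 fold changes were −0.54 for Tmem132a and 0.50 for Tmem132e, and neither overlapped. The median was −0.06 over the 2 members and 0 over all genes.

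Under EPZ6438, K27M cells held less Tmem132c and Tmem132b than wild-type cells, while the groups overlapped for Tmem132a and Tmem132e. Over its 3 transcripts, Tmem132c averaged 15.7 ± 1.71 CPM in K27M EPZ6438 and 34.6 ± 1.23 CPM in WT EPZ6438, a log2 fold change of −1.14 (SE 0.094) or 2.21-fold lower. By log2 fold change Tmem132c ranked 40 from the bottom of the 13060 genes tested. Tmem132b averaged 2.01 ± 0.404 CPM and 3.6 ± 0.224 CPM, a log2 fold change of −0.81 (SE 0.23) or 1.76-fold lower. Both of these had no overlap, beside 23.5% of all genes that did not overlap, 10.2% being higher and 13.3% lower. Tmem132a had a log2 fold change of 0.01 (SE 0.076) and Tmem132e of 0.12 (SE 0.088), both with overlap. The median was −0.40 over the 4 members and 0.01 over all genes.

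Taken as K27M response minus wild-type response on the log2 scale, the difference was 0.51 (SE 0.133) for Tmem132a, −0.88 (SE 0.508) for Tmem132b, −1.78 (SE 0.774) for Tmem132c and −0.19 (SE 0.16) for Tmem132e. An adjusted p below 0.05 was reached by 36.3% of 13300 genes for this difference. The value of Tmem132c rests on 6 DMSO counts in K27M cells and 2 in wild-type cells, and it was −1.31 without WT DMSO replicate 1. Without that library the difference was 0.54 for Tmem132a, −0.93 for Tmem132b and −0.39 for Tmem132e.

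GC content moved with the values of both Tmem132a and Tmem132e. The transcripts of Tmem132a had 62.2% GC, higher than in 98.3% of listed genes, and those of Tmem132e 61%, higher than in 97.1%. Tmem132b with 49.4% and Tmem132c with 52.2% were near the median of 50.3%. Across all genes, the log2 fold change fell with GC in K27M against WT in DMSO (Spearman −0.69). For EPZ6438 against DMSO it rose with GC in K27M cells (Spearman 0.27) and fell with GC in wild-type cells (Spearman −0.39), and between genotypes under EPZ6438 it was −0.19. After removal of the GC trend from each library, Tmem132a had a log2 fold change of −0.06 in K27M DMSO against WT DMSO, 0.23 in K27M EPZ6438 against K27M DMSO and 0.17 in WT EPZ6438 against WT DMSO, and its difference of responses was 0.06. Tmem132e changed to 0.71 in K27M DMSO against WT DMSO, to 2.47 for the inhibitor in K27M cells and to 3.07 in wild-type cells, with a difference of responses of −0.59. The inhibitor responses of Tmem132b (2.62 in K27M cells and 3.48 in wild-type cells) and of Tmem132c (7.18 and 9.20) stayed within 0.1 of their values without this step.

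**Figure D3:**
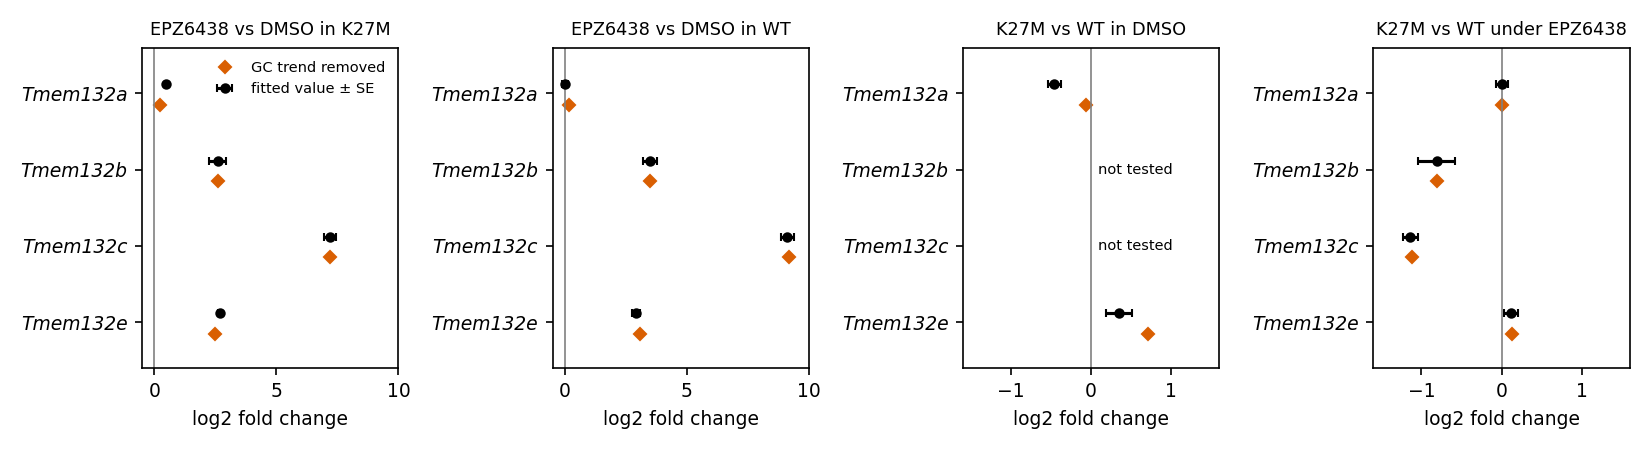
Log2 fold changes of the Tmem132 genes in the 4 comparisons; black circles are the fitted values with SE, orange diamonds the values after removal of each library's GC trend, and the left pair of panels has a wider axis than the right pair. The fitted value of Tmem132c against DMSO depends on the handling of near-zero counts, and the values of Tmem132a in K27M DMSO against WT DMSO and in K27M EPZ6438 against K27M DMSO move toward 0 after GC removal.

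Tmem132a was read from 2 coding transcripts. Tmem132a-201 (ENSMUST00000025645, 11 exons, 3657 bases) carries the longer coding sequence of 3054 bases. Tmem132a-202 (ENSMUST00000120524, 10 exons, 3895 bases) keeps a 412-base intron at chr19:10859152-10859563 and has a coding sequence of 2061 bases. The sequence below shows why (GENCODE M21, GRCm38, chr19:10859513-10859587, minus strand, written in the sense of the gene). Lower case marks the last exon bases before the intron and capitals the first 51 intron bases, which add 16 codons and end in the stop codon TGA.
Tmem132a-202: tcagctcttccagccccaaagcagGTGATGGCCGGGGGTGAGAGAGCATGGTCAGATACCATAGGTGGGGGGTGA
Tmem132a-202 held 19.9, 24.7 and 21.7% of the gene's estimated counts in K27M EPZ6438, against 14.4, 11.7 and 22% in K27M DMSO. It held 17.1, 14.5 and 14.5% in WT EPZ6438, against 10.8, 9.58 and 13.3% in WT DMSO. In wild-type cells the inhibitor libraries were all above the DMSO libraries, in K27M cells the groups overlapped, and under the inhibitor all K27M libraries were above all wild-type libraries. In the authors' deposited table the effect for Tmem132a-202 on the natural log scale was 0.653 (SE 0.24) for the inhibitor in K27M cells and 0.267 (SE 0.228) in wild-type cells. For Tmem132a-201 the authors' deposited table gave 0.228 (SE 0.0433) in K27M cells and −0.0994 (SE 0.108) in wild-type cells.

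Tmem132e was also split between 2 coding transcripts, but that split rested on few fragments. Tmem132e-202 (ENSMUST00000092852) has 10 exons and a coding sequence of 2946 bases. Tmem132e-201 (ENSMUST00000054245) keeps a 276-base intron at chr11:82434701-82434976 within a coding sequence of 3222 bases that ends at the same stop. Its estimated counts were whole multiples of 15.43 (0 to 11 times, tolerance 0.001) in 11 of 12 libraries. Its share ran from 19.7 to 54.4% in K27M EPZ6438, from 0 to 30.9% in K27M DMSO, from 16.1 to 22.5% in WT EPZ6438 and from 0 to 84.8% in WT DMSO, so no order can be read. Tmem132b was listed as 1 transcript with 9 exons and 7995 bases. Tmem132c-201 with 9 exons and a coding sequence of 3321 bases held 83.72 to 96% of Tmem132c counts in K27M EPZ6438 and 86.99 to 91.12% in WT EPZ6438. The rest was divided equally between a pair of noncoding transcripts from the 3' part of the gene, Tmem132c-202 and Tmem132c-203.

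**Figure D4:**
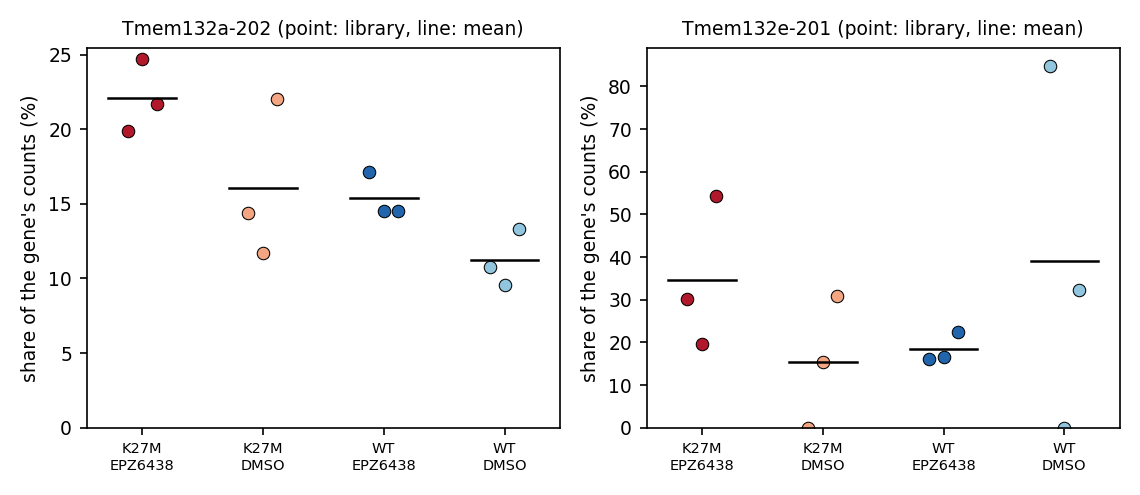
Share of the gene's estimated counts (%) given to Tmem132a-202 (left) and Tmem132e-201 (right), the transcripts that keep an intron; points are libraries and lines are group means, on axes from 0. Tmem132a-202 ran from 19.9 to 24.7% in K27M EPZ6438 and from 9.58 to 13.3% in WT DMSO, while Tmem132e-201 ranged from 0 to 84.8% in WT DMSO alone.

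The genes whose profile over the 12 libraries came closest to each member were found among 12667 genes by the root mean square difference of centred log2(CPM + 0.5) values. For Tmem132c they included Hoxa7, Col3a1, Hoxb3 and Tbx15, with differences of 0.29 to 0.399. These 4 genes averaged at most 0.396 CPM in the DMSO groups. Hoxa7 averaged 22 CPM in K27M EPZ6438, 0.174 CPM in K27M DMSO, 31.3 CPM in WT EPZ6438 and 0.152 CPM in WT DMSO. Hoxa7, Hoxb3 and Tbx15 are transcription factors of body patterning and Col3a1 is a fibrillar collagen. For Tmem132e they were Crym, Hoxc4, Trabd2b, Nkx2-5 and Hoxb7, with differences of 0.146 to 0.208. These averaged at most 4.25 CPM in the EPZ6438 groups and at most 0.304 CPM in the DMSO groups. Tmem132e averaged 27.1 CPM in K27M EPZ6438 and 4.18 CPM in K27M DMSO. Near 0 the added 0.5 CPM shrinks ratios, so these genes are not alike in level or in ratio to Tmem132e. For Tmem132b they were Col14a1, Synpr, Map3k9, Il17rd and Lrrc3, with differences of 0.254 to 0.283. For Tmem132a they were Rhob, Olig2, Atf6b, Atp13a2 and Ptk7, with differences of 0.0344 to 0.0506, and Ptk7 is itself a planar polarity receptor. With a pseudocount of 2 CPM all 5 of the nearest genes of Tmem132a were kept, 3 of 5 for Tmem132c, 1 of 5 for Tmem132b and 0 of 5 for Tmem132e.

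Markers of other cell types also changed with EPZ6438, some up and some down. Over all genes tested, edgeR called 28.9% higher and 27.3% lower with EPZ6438 in K27M cells, and 21.4% and 20.7% in wild-type cells. Of 7 mesenchymal markers, 5 were measured in all libraries, and their summed level was 48.9 to 59.4 CPM in K27M EPZ6438 against 2.73 to 3.31 CPM in K27M DMSO, and 51.4 to 64.6 CPM in WT EPZ6438 against 2.35 to 3.2 CPM in WT DMSO. Twist1 and Col3a1 carried most of these sums with EPZ6438. In K27M cells 5 of 6 tested markers rose and 0 fell, and in wild-type cells 4 of 5 rose and 0 fell. Col1a1 averaged 2.92 CPM in K27M EPZ6438 against 2.38 CPM in K27M DMSO. In wild-type cells Col1a1 had a log2 fold change of 0.57 (edgeR adjusted p = 0.115). Dcn was at 0 in all DMSO libraries, Col1a2 was listed in no table, and Col3a1 of this list is among the nearest profiles of Tmem132c. With EPZ6438 7 of 8 neuronal markers rose in each genotype (edgeR adjusted p below 0.05), while Snap25 fell in K27M cells (log2 fold change −0.55, edgeR adjusted p = 0.0229). The 8 markers, carried mostly by Map2, summed to 1490 to 1810 CPM in K27M EPZ6438 against 944 to 1010 CPM in K27M DMSO, and to 1250 to 1690 CPM in WT EPZ6438 against 571 to 918 CPM in WT DMSO. The part of these cell types in the levels of Tmem132b, Tmem132c and Tmem132e was not tested. Of 6 markers of oligodendrocyte precursors, 1 rose and 4 fell with EPZ6438 in K27M cells, and 0 rose and 3 fell in wild-type cells. Their sum, 1800 to 1920 CPM in K27M EPZ6438 against 2660 to 2870 CPM in K27M DMSO, and 1730 to 1960 CPM in WT EPZ6438 against 3270 to 4020 CPM in WT DMSO, followed Olig1. Olig2, among the nearest profiles of Tmem132a, rose in K27M cells (log2 fold change 0.42, edgeR adjusted p = 5.19e-06) and had −0.03 in wild-type cells (edgeR adjusted p = 0.811). Of the 8 stem cell markers, 1 rose and 5 fell in K27M cells, and 0 rose and 5 fell in wild-type cells. Nr2e1, a nuclear receptor of neural stem cells, fell by 1.40 in K27M cells (edgeR adjusted p = 1.08e-07) and by 1.30 in wild-type cells (edgeR adjusted p = 6.2e-05). The part of these markers in the level of Tmem132a was not tested. Of 6 astrocyte markers, 3 rose and 3 fell with EPZ6438 in K27M cells, and 1 rose and 2 fell in wild-type cells. Of 6 markers of mature oligodendrocytes 3 were measured, of which 0 rose and 3 fell in K27M cells, and 0 rose and 1 fell in wild-type cells. Of 6 microglial markers 5, and of 5 endothelial markers 3, were listed in no table. Of the endothelial list 1 gene, Kdr, was tested for the inhibitor. It rose by a log2 fold change of 1.25 in K27M cells and 0.94 in wild-type cells (edgeR adjusted p below 0.05 in each). The microglial marker P2ry12 was tested for the inhibitor in K27M cells only, with −0.10 (edgeR adjusted p = 0.823).

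The WAVE complex and the neurabins, the actin partners known from the worm protein, were followed as a list of 13 genes, of which 12 were listed (Abi3 was not). With EPZ6438 in K27M cells 2 of 12 tested genes rose and 5 fell, beside 56.3% of all genes called, 28.9% higher and 27.3% lower (edgeR quasi-likelihood test, adjusted p below 0.05 over all genes). The WAVE subunit Wasf3 rose to 81 ± 1.36 CPM with EPZ6438, against 50.3 ± 1.55 CPM with DMSO (log2 fold change 0.69, SE 0.041, edgeR adjusted p = 5.26e-07). Wasf1 fell by 0.38 on the log2 scale (edgeR adjusted p = 2.16e-05), Abi2 by 0.35 (edgeR adjusted p = 0.000988) and the neurabin Ppp1r9a by 0.34 (edgeR adjusted p = 0.00145). With EPZ6438 in wild-type cells 3 of 11 rose and 0 fell, beside 42.1% of all genes, 21.4% higher and 20.7% lower. Wasf3 rose there to 87.6 ± 7.12 CPM, against 54 ± 1.94 CPM with DMSO (log2 fold change 0.69, SE 0.079, edgeR adjusted p = 0.000713), and Abi1 and Cyfip2 rose by 0.33 and 0.26 on the log2 scale (edgeR adjusted p = 0.0471 and 0.0359). Without WT DMSO replicate 1 that count was 5 higher and 5 lower, with 2 of the 3 genes shared. Calls over all genes then went from 5420 to 7701. Without WT EPZ6438 replicate 3 or WT DMSO replicate 2 or 3 the list count was 1 gene in all, beside 3425, 3859 and 3344 calls over all genes. The list's median log2 fold change was −0.04 in K27M cells and 0.26 in wild-type cells, against 0.01 and 0.04 over all genes.

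The same list was then compared between genotypes. In K27M DMSO against WT DMSO 4 of 12 rose and 2 fell, beside 60.1% of all genes, 29.8% higher and 30.4% lower. Without WT DMSO replicate 1 4 rose and 5 fell, beside 9276 calls over all genes, against 7897 with that library. Ppp1r9a (log2 fold change 1.11, SE 0.249, edgeR adjusted p = 0.011), Nckap1 (0.80, edgeR adjusted p = 0.00835) and Abi2 (0.80, edgeR adjusted p = 0.0065) were higher in K27M DMSO. Brk1 and Ppp1r9b were each lower by 0.27 on the log2 scale (edgeR adjusted p = 0.00687 and 0.0173), and Ppp1r9b had 0.09 with the GC trend removed. Under EPZ6438 none of 11 was called by edgeR (0) or by DESeq2 (0), and 4 had an unadjusted p below 0.05 in edgeR, beside 1.79% of all genes called, 0.567% higher and 1.23% lower.

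The 17 partners of Tmem132a and genes of planar cell polarity, the system that orients cells within a sheet and is needed for neural tube closure, were all listed and tested. Hspa5, the chaperone partner, was higher in K27M EPZ6438 than in K27M DMSO by a log2 fold change of 0.22 (SE 0.025, edgeR adjusted p = 5.54e-05), and had 0.18 in wild-type cells (edgeR adjusted p = 0.0531). It was also higher in K27M DMSO than in WT DMSO (0.23, edgeR adjusted p = 0.0138) and in K27M EPZ6438 than in WT EPZ6438 (0.26, edgeR adjusted p = 0.0192). The first of these genotype values was 0.02 with the GC trend removed. Wls, the Wnt carrier, rose by a log2 fold change of 0.17 with EPZ6438 in K27M cells (edgeR adjusted p = 0.00124) and of 0.91 in wild-type cells (edgeR adjusted p = 9.82e-05). It averaged 373 ± 6.71 CPM in K27M DMSO and 216 ± 15.7 CPM in WT DMSO (log2 fold change 0.79, SE 0.058, edgeR adjusted p = 0.000533), which was 0.08 with the GC trend removed. Under the inhibitor the genotypes had a Wls log2 fold change of 0.04 (edgeR adjusted p = 0.679).

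As a group, 10 of these 17 genes rose and 3 fell with EPZ6438 in K27M cells, and 4 rose and 4 fell in wild-type cells. The shares over all genes were 28.9% and 27.3% in K27M cells and 21.4% and 20.7% in wild-type cells. After GC removal 8 rose and 4 fell in K27M cells and 6 rose and 3 fell in wild-type cells, where without WT DMSO replicate 1 6 rose and 6 fell. Calls over all genes in K27M cells were 7598, and 7931 after GC removal. In wild-type cells they were 5420, 5934 after GC removal and 7701 without that replicate. The flamingo cadherin Celsr3 rose in both, by 1.15 (edgeR adjusted p = 2.6e-07) in K27M cells and 0.83 (edgeR adjusted p = 0.00153) in wild-type cells on the log2 scale. The frizzled receptor Fzd6 also rose, by 0.48 (edgeR adjusted p = 0.00947) and 1.09 (edgeR adjusted p = 0.00271). Celsr2 fell by 0.24 in K27M cells (edgeR adjusted p = 0.000298) and by 0.30 in wild-type cells (edgeR adjusted p = 0.0255). Celsr1 fell by 0.94 in K27M cells (edgeR adjusted p = 6.19e-08) and by 0.43 in wild-type cells (edgeR adjusted p = 0.00397), and Vangl1 by 0.78 (edgeR adjusted p = 2.25e-06) and 0.91 (edgeR adjusted p = 0.000147). The tyrosine kinase-like receptor Ptk7, the fifth-nearest profile of Tmem132a, rose by 0.45 in K27M cells (edgeR adjusted p = 1.97e-05) and had 0.10 in wild-type cells (edgeR adjusted p = 0.406). In K27M DMSO against WT DMSO 5 rose and 7 fell, beside 29.8% and 30.4% of all genes. With the GC trend removed 5 rose and 2 fell, and without WT DMSO replicate 1 4 rose and 9 fell. Calls over all genes were 5736 and 9276 in these fits, against 7897 in the main fit. Beside Wls, Fzd3 and Fzd6 had the largest rises there (log2 fold changes 0.75 and 0.41, edgeR adjusted p = 0.0311 and 0.0298), but with the GC trend removed Fzd3 had −0.10 and Wls 0.08. Celsr3, the Wnt acyltransferase Porcn and Ptk7 had the largest falls (−0.57, −0.50 and −0.39, edgeR adjusted p = 0.00589, 0.0051 and 0.00587). Under EPZ6438 Hspa5 alone of this list was higher in K27M cells and Celsr1 alone lower (log2 fold change −0.31, edgeR adjusted p = 0.0392). The list's median log2 fold change was 0.22 for the inhibitor in K27M cells, 0.10 in wild-type cells, −0.10 for K27M DMSO against WT DMSO and −0.03 under EPZ6438.

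The annotated neighbours of the Tmem132 genes, 3 on each side, made 27 genes, of which 12 code for proteins and 8 were listed. With EPZ6438 in K27M cells 3 of 6 tested neighbours rose and 2 fell, and in wild-type cells 0 of 5 rose and 2 fell, beside 56.3% and 42.1% of all genes called in either direction. Aacs, an acetoacetate enzyme gene 15012 bases before Tmem132b, fell by 0.46 in K27M cells (edgeR adjusted p = 7.3e-06) and by 0.63 in wild-type cells (edgeR adjusted p = 0.00136), where Tmem132b was higher. Between genotypes Aacs had −0.15 in DMSO (edgeR adjusted p = 0.054) and 0.01 under EPZ6438 (edgeR adjusted p = 0.939). Slc15a4, a peptide and histidine transporter gene 28754 bases past Tmem132c, rose by 0.36 in K27M cells (edgeR adjusted p = 0.00057) and had −0.21 in wild-type cells (edgeR adjusted p = 0.124). Glt1d1, the next gene and the one beside Tmem132d, averaged 0.546 ± 0.317 CPM with EPZ6438 and 1.04 ± 0.233 CPM with DMSO in K27M cells (edgeR adjusted p = 0.0708). Beside Tmem132a, Tmem109 rose by 0.18 in K27M cells (edgeR adjusted p = 0.00959) and fell by 0.32 in wild-type cells (edgeR adjusted p = 0.0228). The wild-type call was lost with the GC trend removed. Of the further neighbours in K27M cells, Prpf19 rose by 0.18 (edgeR adjusted p = 0.000462) and Bri3bp fell by 0.12 (edgeR adjusted p = 0.0112). Slc15a3 overlaps Tmem132a by 87 bases (RefSeq), and the strand setting of the counting is not given in the sources used here, so reads in that stretch cannot be assigned with certainty. It fell under the filter in every comparison. In K27M DMSO against WT DMSO 0 of 6 rose and 3 fell, beside 60.1% of all genes called (Slc15a4, Tmem109 and Prpf19, by 0.44, 0.33 and 0.27 on the log2 scale, edgeR adjusted p = 0.00382, 0.0097 and 0.00385). Without WT DMSO replicate 1 edgeR called 5 neighbours in that comparison and 5 for the inhibitor in wild-type cells. Under EPZ6438 edgeR called 0 of 5 and DESeq2 0, with 1 at an unadjusted p below 0.05 in edgeR, beside 1.79% of all genes called.

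Several calls among these named genes did not hold with each library left out in turn. For the inhibitor in wild-type cells, the edgeR adjusted p ran from 0.0149 to 0.158 for Abi1, from 0.042 to 0.133 for Cyfip2, from 0.000809 to 0.104 for Celsr2 and from 0.00641 to 0.0852 for Tmem109. In K27M cells it ran from 0.0454 to 0.144 for Cyfip2, and from 0.00442 to 0.0607 for Tmem109, whose call was lost without K27M EPZ6438 replicate 3. In K27M DMSO against WT DMSO it ran from 8.78e-06 to 0.106 for Fzd3, from 0.0573 to 0.0915 for Fzd6, from 1.43e-05 to 0.0568 for Hspa5 and from 1.82e-05 to 0.0648 for Ppp1r9b. Between genotypes under EPZ6438 it ran from 0.0184 to 0.132 for Hspa5 and from 0.0516 to 0.195 for Celsr1. The other named calls, 16 of 18 in K27M cells, 7 of 11 in wild-type cells and 11 of 15 between genotypes in DMSO, passed in all 6 such fits. Some of them were lost in other settings. With the GC trend removed these were Wls, Porcn, Ptk7 and Tmem109 between genotypes in DMSO, and Celsr3 when the replicate number was also fitted. For the inhibitor in K27M cells they were Abi2, Bri3bp and Ppp1r9a in one fit of all 12 libraries, and Fzd6 with DESeq2.

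**Figure D5:**
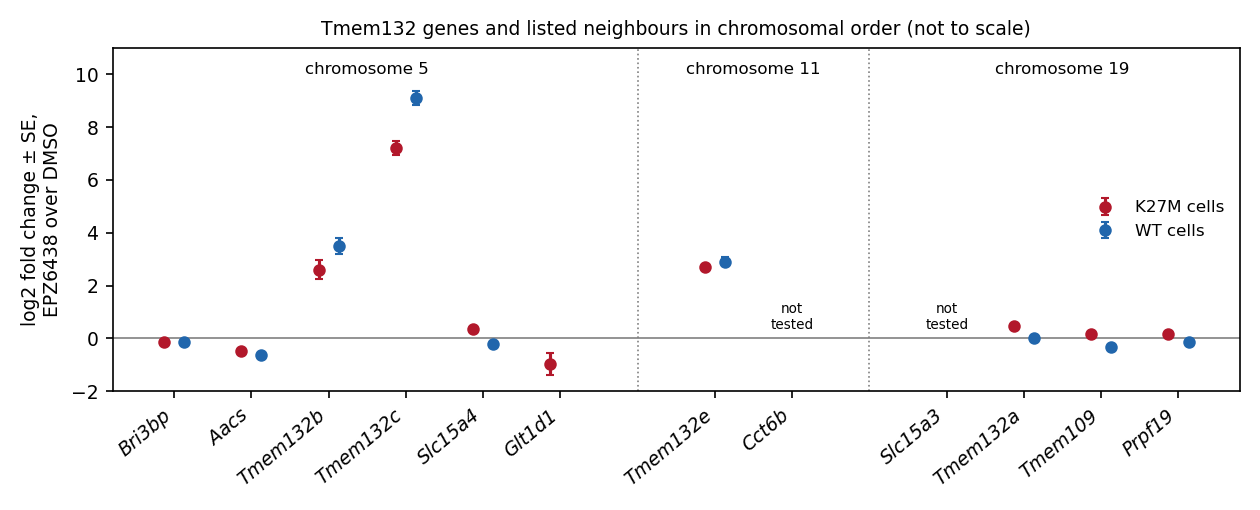
Log2 fold change with SE of EPZ6438 over DMSO in K27M cells (red) and wild-type cells (blue) for the Tmem132 genes and their listed neighbours, in chromosomal order and not to scale. Tmem132b, Tmem132c and Tmem132e stand between 2.60 and 9.11, while each tested neighbour lies between −0.96 and 0.36.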

How the data were processed

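Messenger RNA of 12 libraries was sequenced, and kallisto and sleuth are named with the GRCm38 (mm10) build in the submitters' processing notes, with no version. Estimated counts per transcript were deposited by the authors in 4 tables, one per pair of groups, and within each table the values of a library had been divided by a size factor. The authors also deposited p-values, q-values and natural log effects per transcript. No transcript is listed with fewer than 3 libraries at 5 or more counts. The authors' transcript annotation was not given in the sources used.

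The size factors were undone from the value of 1 read, and gene sums of the estimated counts were rounded to whole numbers. Rows with no gene name held 0.45 to 0.577% of counts and were left out. Each pair of groups was fitted alone with edgeR 4.0.16 (TMM, filterByExpr, quasi-likelihood test, Benjamini-Hochberg adjustment over all genes, calls below 0.05, two-sided) in R 4.3.3, and all 12 libraries together for the difference of responses. The edgeR fit of a pair of groups was tried on simulated counts with known changes, which held no GC trend and no unlike library. The other steps were not tried in this way. Alternatives used DESeq2 1.42.0, upper-quartile scaling, no low-count filter, one fit of all 12 libraries, the deposited values as they stand, removal of each library's GC trend, the replicate number as a block, and each library left out. Intervals of count ratios (95%, exact conditional binomial) and the floor of 3 counts cover counting error only. Positions and transcripts were taken from GENCODE M21, and promoters from RefSeq.

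The members and gene lists were chosen with earlier results of these data known. The text names every listed member and, of the partner lists and neighbours, up to 3 called genes in each direction per comparison, those furthest from 0. Hspa5, Wls and the genes directly beside a member are also named, with the 5 nearest profiles of each member, of which 1 is not reported here.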

Additional observations from a re-analysis of the deposited data

Results flagged for a closer look

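For 14 genes of the partner lists and neighbours, the response to EPZ6438 differed between genotypes by the interaction test in edgeR (log2 response in K27M cells minus that in wild-type cells, adjusted over all genes, of which 36.3% were called). Among the actin partners of the worm protein the difference was −0.65 for Nckap1 (adjusted p = 0.0135), −0.69 for Abi2 (adjusted p = 0.0159) and −0.88 for Ppp1r9a (adjusted p = 0.0286). With the GC trend removed these 3 values were −0.30, −0.36 and −0.73, and without WT DMSO replicate 1 they were −0.90, −0.89 and −1.26. Among the Wnt and polarity genes it was −0.72 for Wls (adjusted p = 3.32e-05), 0.49 for Porcn (adjusted p = 0.0334), −0.46 for Celsr1 (adjusted p = 0.00638), −0.58 for Fzd6 (adjusted p = 0.0302) and 0.39 for Ptk7 (adjusted p = 0.0272). With the GC trend removed the values were −0.14 for Wls (adjusted p = 0.517), 0.17 for Porcn (adjusted p = 0.417), −0.83 for Celsr1, −0.41 for Fzd6 (adjusted p = 0.154) and 0.02 for Ptk7 (adjusted p = 0.864). Without WT DMSO replicate 1 they were −0.81, 0.49, −0.44, −0.66 and 0.40 in the same order. The other 3 genes, outside the rule for named genes and named after their values were seen, were Dvl1 with 0.47 (adjusted p = 0.00255), Dvl3 with 0.37 (adjusted p = 0.0218) and Scrib with 0.36 (adjusted p = 0.0227). After removal of the GC trend these had 0.08, 0.03 and −0.06, and without WT DMSO replicate 1 0.45, 0.37 and 0.39. Among the neighbours it was 0.55 for Tmem109 (adjusted p = 0.00356), 0.34 for Prpf19 (adjusted p = 0.00479) and 0.61 for Slc15a4 (adjusted p = 0.0043), with 0.27, 0.19 and 0.34 after removal of the GC trend and 0.53, 0.33 and 0.63 without WT DMSO replicate 1. By list, 0 genes were higher and 3 lower of 12 WAVE and neurabin genes, 5 and 3 of 17 partner and polarity genes, and 3 and 0 of 6 neighbours. After removal of the GC trend these counts were 0 and 4, 1 and 3, and 3 and 0, and without WT DMSO replicate 1 they were 2 and 4, 6 and 4, and 3 and 0. Over all genes 4823 were called in the main fit, 2961 after removal of the GC trend and 6975 without WT DMSO replicate 1.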

How the results depend on the processing

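The counts of Tmem132 genes whose groups did not overlap were 4 for the inhibitor in K27M cells and 3 in wild-type cells under each left-out library, and 4 in wild-type cells with the GC trend removed. In K27M DMSO against WT DMSO they ran from 1 to 2 with a library left out and were 2 with DESeq2, and under EPZ6438 between genotypes from 2 to 3. The share of all genes without overlap is not given for these fits. With 2 libraries in a group a lack of overlap is easier to reach, so nothing is read from these counts. Leaving out each library moved the calls over all genes to 5026 to 9276 (K27M DMSO against WT DMSO), 3344 to 7701 (inhibitor in wild-type cells), 6626 to 7685 (inhibitor in K27M cells), 17 to 195 (genotypes under EPZ6438) and 3393 to 6975 (difference of responses, 2961 with the GC trend removed). WAVE complex calls ran from 5 to 9, 1 to 10, 6 to 7 and 0 to 0 over the first 4 of these, and neighbour calls from 3 to 5, 1 to 5, 5 to 5 and 0 to 0. The upper ends of 9276, 7701, 9, 10 and 5 came without WT DMSO replicate 1, and the 17 without K27M EPZ6438 replicate 3. Neighbour calls in K27M DMSO against WT DMSO were 5 with the GC trend removed, and for the inhibitor in wild-type cells 1. In one fit of all 12 libraries the inhibitor in wild-type cells gave 10 WAVE complex and 5 neighbour calls, and in K27M cells 3 and 3.

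Deviations of same-numbered libraries of the groups compared had correlations from −0.05 to 0.26. The highest were 0.24 for replicate 1 and 0.26 for replicate 2 in EPZ6438 against DMSO in wild-type cells, where replicate 3 had −0.02. There, libraries of unlike number ran from −0.34 to 0.14. Whether the replicate number marks a shared batch was not tested. With the replicate block the WAVE complex calls in wild-type cells were 8 (7 with the GC trend also removed), and the calls between genotypes under EPZ6438 were 539 (797 with the GC trend also removed, 714 with it removed alone). For the inhibitor the block gave 7537 calls in K27M cells and 7132 in wild-type cells, against 7598 and 5420 without it.

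Some log2 fold changes changed sign. With the GC trend removed, with or without the block, Aacs was 0.15, Fzd3 −0.10 and Ppp1r9b 0.09 in K27M DMSO against WT DMSO, and Wls was −0.05 between genotypes under EPZ6438. Abi1 was −0.12 in wild-type cells with the inhibitor, and −0.14 with the block. Tmem132a for the inhibitor in wild-type cells was −0.02 with DESeq2, −0.03 with upper-quartile scaling and −0.03 in one fit, and ran from −0.13 to 0.08 with a library left out. Between genotypes under EPZ6438 Tmem132a was −0.01 and Aacs −0.00 with upper-quartile scaling, and with a library left out they ran from −0.06 to 0.08 and from −0.04 to 0.07. The cause of these changes was not tested. Over all alternatives, 263 values of the Tmem132 genes kept direction and were not marked as moved, 28 were marked as moved and 8 changed sign. Values not marked as moved were not all stable. The difference of responses of Tmem132c went from −1.78 to −2.27 without WT DMSO replicate 2. That of Tmem132b went from −0.88 to −0.52 without K27M DMSO replicate 2. The DMSO levels of Tmem132b and Tmem132c rest on at most 10.6 counts per library.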
